A study of Mus musculus with 2 samples.

Results

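Smooth muscle contractile and cytoskeletal genes were examined in ureters of mouse embryos with a conditional deletion of Rbpj in the ureteric mesenchyme. The set is a list of 34 gene symbols, matched by name to the non-control probes of both arrays. All 34 were found, on 59 of the 39429 probes of the array, out of 29924 gene names. The probes are 60 bases long, each printed as 4 spots. A gene was measured when a probe had at least 2 of its 4 spots well above background in 1 channel on each array, and 32 of the 34 genes passed with 52 probes. Lmod1 (leiomodin, an actin nucleator) and Kcnmb1 (the accessory subunit of the smooth muscle BK potassium channel) were above background on 0 of 4 spots in every channel, and no ratio is given for them.

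Ureters were dissected at E14.5 from embryos of the NMRI strain. Rbpj-cKO embryos were Tbx18(cre/+);Rbpj(fl/fl), so that Cre recombinase from the Tbx18 locus, which is active in the mesenchyme around the ureteric epithelium, removes Rbpj. Control embryos were Rbpj(fl/?), whose second Rbpj allele is not specified, and the labels name no Cre allele for them. Each of 2 two-colour arrays held 1 Rbpj-cKO and 1 control RNA. On replicate 1 both came from male embryos with Rbpj-cKO in red (AlexaFluor647), and on replicate 2 both came from female embryos with Rbpj-cKO in green (AlexaFluor555). Sex and dye therefore change together and cannot be told apart. Nothing in the labels says whether embryos were pooled.

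The ureter carries urine to the bladder by peristalsis of a smooth muscle coat that forms from its mesenchyme before birth. Contraction starts when calcium-bound calmodulin activates myosin light chain kinase, which lets smooth muscle myosin pull on actin filaments, and myosin phosphatase ends it. Many genes of this apparatus are driven by serum response factor (SRF) with its coactivator myocardin, through a DNA element called the CArG box. Rbpj is the DNA-binding partner of the Notch receptors, which act in smooth muscle differentiation in several organs.

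The targeted gene was less abundant in Rbpj-cKO of both pairs. Rbpj had a normalized intensity of 2585 in Rbpj-cKO and 5642 in control on replicate 1, and 2765 and 4280 on replicate 2. The log2 ratios of Rbpj-cKO over control, as all ratios below, were -1.13 and -0.63 (limma adjusted p = 0.727). These are values of the brightest Rbpj probe. A dimmer Rbpj probe had -0.48 and -0.37, and averaging the probes gave a mean of -0.65. The female Rbpj-cKO channel had signal of Y-linked genes that its label does not provide for. Ddx3y and Eif2s3y reached 8.04% and 8.92% of the male Rbpj-cKO signal there, well above background on 4 of 4 spots each, against 0 and 2 of 4 spots in female control. For this reason, and because the arrays differed in sex and dye, the value of each array is given beside every mean. With both arrays turned to Rbpj-cKO over control, their ratios correlated at -0.352 (Pearson, across the 20438 measured genes, which are not replicates). Between 67.7% and 70.1% of the spots of a channel were well above background, no spot was saturated, and 2 arrays limit the precision.

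Of the 32 measured genes, 5 were higher and 4 lower in Rbpj-cKO on both arrays, and 23 had opposite signs. Pcp4, a calmodulin-binding peptide gene, was the highest on both arrays, and Cnn1 (calponin) was the gene whose lower values agreed best. The best known marker of the set, Acta2 (smooth muscle alpha-actin), was higher in Rbpj-cKO of the male pair and lower in that of the female pair. Of all measured genes 16% were higher on both, 14.7% lower on both and 69.2% opposite. The counts of 5, 4 and 23 of 32 are thus near those shares. However, 20 of the 23 were higher on replicate 1 and lower on replicate 2, a pattern of 34.3% of all genes, and 3 the other way, a pattern of 34.9%. For those 20 genes the red channel was the brighter on both arrays, and the part of the dyes in their opposite signs was not tested.

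**Figure D1:**
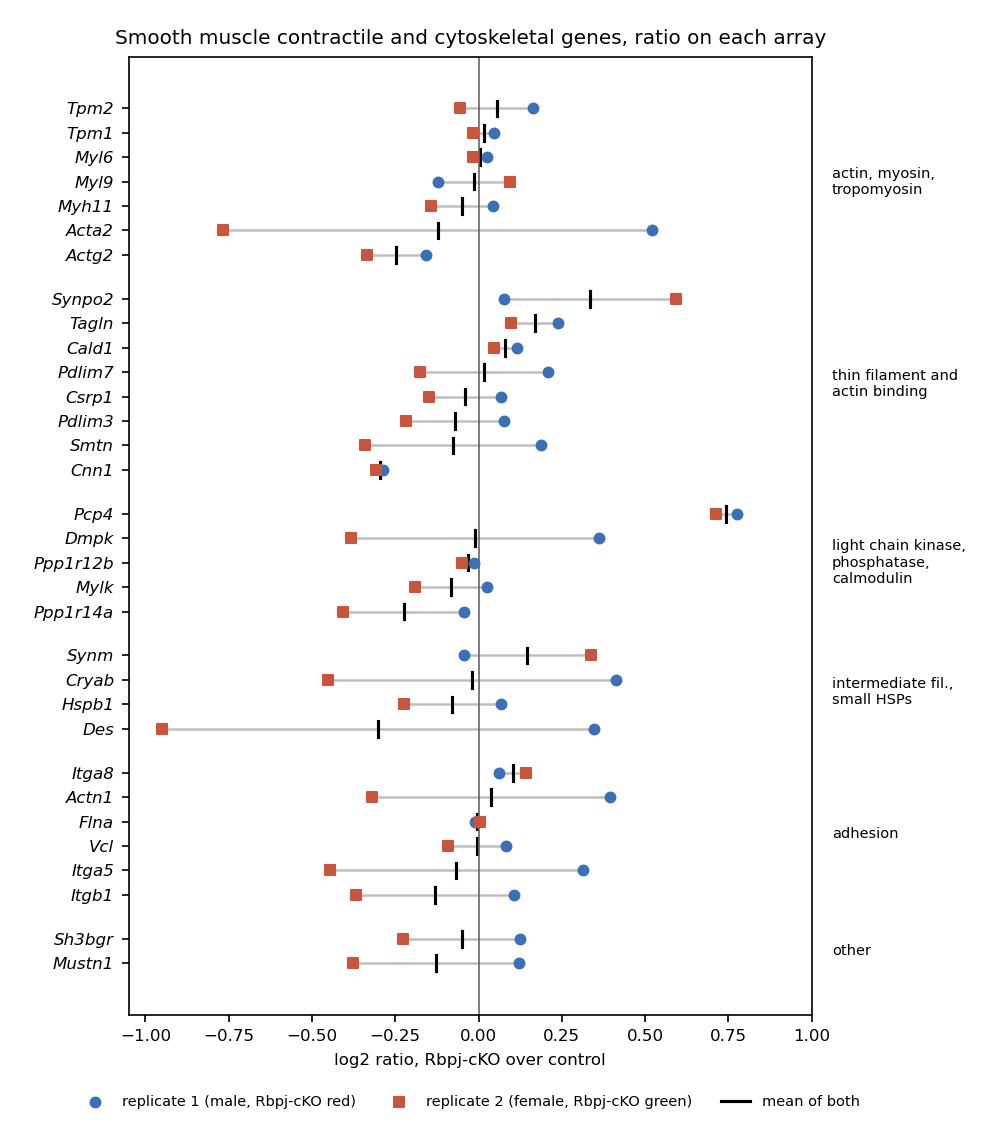
Log2 ratio of Rbpj-cKO over control (x axis) of the 32 measured genes, in rows grouped by role. Circles are replicate 1, squares replicate 2 and black ticks the mean of both. Pcp4 stands apart on the right at 0.77 and 0.71, Cnn1 has both points at about the same place on the left, and Acta2 and Des have their points farthest apart.

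With limma over all 20438 genes, 0 of 32 passed an adjusted p under 0.05, and 0% of all genes did. At an unadjusted p under 0.05 there was 1 gene of the set, Pcp4, which was higher, and 376 of all genes (1.84%; 1.3% higher and 0.538% lower). The median of the 32 mean ratios was -0.026, against -0.0033 for all genes. It was 0.079 on replicate 1 and -0.18 on replicate 2. With median centring in place of loess it was 0.29 and -0.40. Under that setting 27 of the 32 genes had opposite signs, against 78.9% of all genes. For 25 of these 27 the positive ratio was that of replicate 1. The share of all genes in that direction is not given for this setting. A mean ratio of less than 0.2 on the log2 scale in either direction was found for 26 genes (81.2%, against 92.4% of all genes). The median SD between the arrays was 0.181 in the set and 0.144 over all genes. The spots of a probe agreed more closely, with a median SD of 0.038 on replicate 1 and 0.050 on replicate 2, so the opposite values of genes such as Acta2 and Des exceed the spot error. Whole ureters were measured, in which fewer smooth muscle cells and less RNA per cell cannot be told apart.

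**Figure D2:**
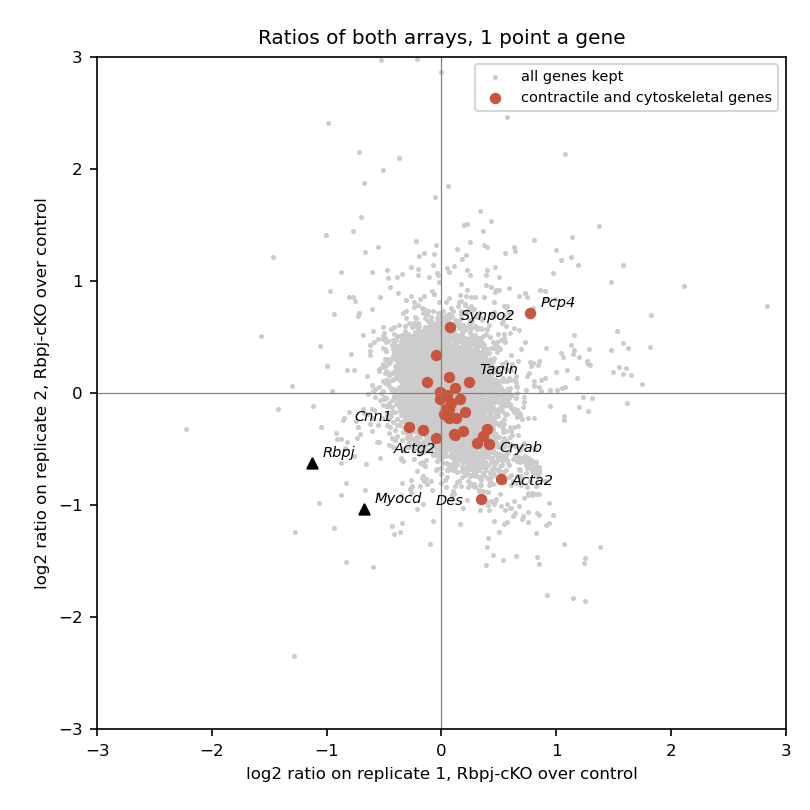
Log2 ratio of Rbpj-cKO over control on replicate 1 (x axis) against replicate 2 (y axis), 1 point a gene. Grey points are all measured genes (1 lies outside the range shown), coloured points the contractile and cytoskeletal genes and triangles Rbpj and Myocd. Most coloured points lie at the lower right, higher on replicate 1 and lower on replicate 2, while Pcp4 lies at the upper right.

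Among the 7 actin, myosin and tropomyosin genes, 0 were higher and 1 was lower on both arrays. For this and the groups below, the shares over all genes were 16% higher on both, 14.7% lower on both and 69.2% opposite. Acta2 (probe at chr19:34316060-34316119, mm9) had an intensity of 4816 in male Rbpj-cKO and 3355 in male control, and of 3728 in female Rbpj-cKO and 6347 in female control. The lowest and the highest of these are both controls, and the genotypes overlap. Its ratios were 0.52 (1.44-fold higher) and -0.77 (1.70-fold lower), with spot SDs of 0.018 and 0.019. Their mean was -0.12 ± 0.91 (SD, n = 2; limma adjusted p = 1). The ratio of replicate 1 minus that of replicate 2, 1.29, was larger than that of 99.2% of all genes.

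Actg2, the enteric smooth muscle gamma-actin, was the gene of this group that was lower on both arrays. Its intensity (chr6:83462904-83462963) was 999 in Rbpj-cKO and 1114 in control on replicate 1, and 927 and 1170 on replicate 2. Both Rbpj-cKO values lie below both controls. The ratios of -0.16 and -0.34 give a mean of -0.25 ± 0.13 (SD, n = 2), lower than that of all but 1.62% of genes (adjusted p = 1). With median centring in place of loess, Actg2 had -0.012 and -0.51.

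Myh11 encodes the smooth muscle myosin heavy chain, a late marker of differentiation. It was dim at this stage, above background on 3 and 1 of 4 spots in Rbpj-cKO and on 4 and 2 of 4 in control (replicate 1 and 2). Its ratios of 0.044 and -0.14 used 4 and 3 spots but come from signal near background, at intensities of 95.88 to 109.4 that include the offset of 50. Their mean was -0.050, against -0.21 with the processed signals of the scanner software and -0.23 in the authors' deposited values. This probe lies on chr16:14202190-14202249, and its sequence is shown because the strength of the marker depends on this single oligonucleotide.
Myh11: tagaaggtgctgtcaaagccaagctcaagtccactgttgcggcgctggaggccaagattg

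By their brightest probes, the light chains and tropomyosins differed little between genotypes. Other probes of Myl6 and Tpm1, given below, lay farther from 0 on each array. Myl6, the essential light chain, had intensities from 99840 to 104700 in the 4 channels and ratios of 0.026 and -0.018 by its brightest probe. Myl9, the regulatory light chain that the kinase phosphorylates, had -0.12 and 0.096. Tpm2 had 0.16 and -0.055, and Tpm1 0.047 and -0.016 by its brightest probe. Their means lay between -0.014 and 0.054.

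**Figure D3:**
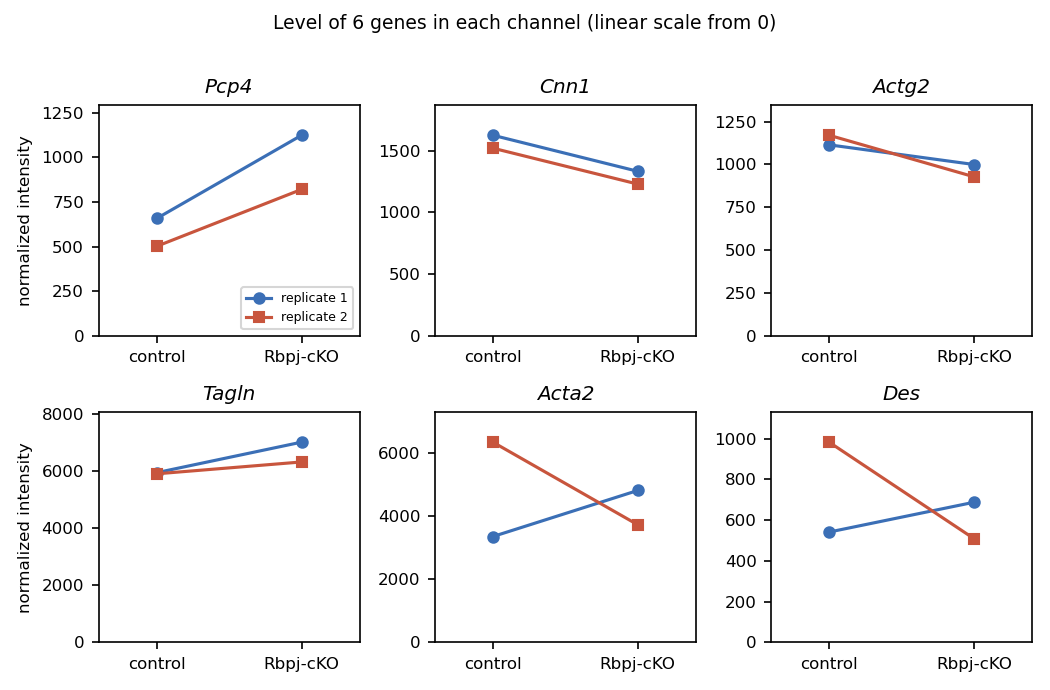
Normalized intensity (y axis, linear, from 0) of 6 genes in control and Rbpj-cKO on replicate 1 (circles) and replicate 2 (squares); each line joins the channels of 1 array. Pcp4 and Tagln go up and Cnn1 and Actg2 go down on both arrays, while the lines of Acta2 and Des cross.

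The actin-binding and thin filament genes held 3 that were higher and 1 that was lower on both arrays. Cnn1, which inhibits the myosin ATPase on the thin filament, had an intensity (chr9:21913058-21913117) of 1334 in Rbpj-cKO and 1627 in control on replicate 1, and of 1230 and 1522 on replicate 2. Both Rbpj-cKO values were below both controls. The ratios were -0.29 and -0.31, averaging -0.30 ± 0.014 (SD, n = 2), which is 1.23-fold lower, and 0.969% of all genes ranked as low or lower (adjusted p = 1; unadjusted p = 0.0591). No other gene of the set was lower on both arrays with so small a difference between them relative to its mean. This closeness depended on loess: with median centring in its place, Cnn1 had -0.14 and -0.49.

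Tagln (transgelin or SM22, an early smooth muscle marker) went the other way from Cnn1. It had 7024 in Rbpj-cKO and 5953 in control on replicate 1, and 6329 and 5913 on replicate 2, with ratios of 0.24 and 0.098. With median centring in place of loess its second ratio was -0.087. Synpo2 (synaptopodin 2, a filament-bundling protein of the Z-disc and dense body) had 620 and 588 on replicate 1 but 948 and 629.7 on replicate 2. Its ratios of 0.077 and 0.59 thus lean on the female pair, and its mean of 0.33 ± 0.36 (SD, n = 2) was the second highest of the set. Cald1 (caldesmon) had 0.11 and 0.046.

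The remaining 4 genes of this group were higher on replicate 1 and lower on replicate 2. Smtn (smoothelin, of contractile smooth muscle) had 0.19 and -0.34, and Pdlim7 (a PDZ and LIM protein of stress fibres) 0.21 and -0.17. Pdlim3, of the same family, had 0.077 and -0.22. Csrp1 (a LIM protein that binds alpha-actinin) had 0.068 and -0.15. Their means ran from -0.077 to 0.017, smaller than their SDs.

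Genes that set light chain phosphorylation and calmodulin use included the widest same-way ratios of the set. Pcp4 (chr16:96747241-96747300) had an intensity of 1125 in Rbpj-cKO and 657 in control on replicate 1, and of 821 and 501 on replicate 2. Both Rbpj-cKO values were above both controls. The ratios of 0.77 and 0.71 correspond to 1.71-fold and 1.64-fold, with a mean of 0.74 ± 0.045 (SD, n = 2) above that of 99.7% of all genes. It was the 1 gene of 32 at least 1.5-fold higher on both arrays, as 0.132% of all genes were; 0 were 1.5-fold lower on both, as 0.0636% of all were. The limma adjusted p was 0.618. With median centring in place of loess, Pcp4 had 0.91 and 0.55, and 0 of the 32 genes were 1.5-fold different the same way.

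Of the other 4 measured genes of this group, 2 were lower on each array and 2 had ratios of opposite sign. Mylk, the light chain kinase, had 0.026 and -0.19. Ppp1r12b, a targeting subunit of myosin phosphatase, had -0.013 and -0.051. Ppp1r14a (CPI-17, which inhibits that phosphatase when phosphorylated) had intensities of 2293 and 2363 on replicate 1 and of 2011 and 2664 on replicate 2. Its ratios of -0.043 and -0.41 differ from 0 mainly in the female pair, and their mean of -0.22 ± 0.26 (SD, n = 2) was lower than that of all but 2.05% of genes. Dmpk (a kinase of muscle, mutated by repeat expansion in myotonic dystrophy) had 0.36 and -0.38, a mean of -0.0098 ± 0.53 (SD, n = 2).

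Of the intermediate filament and small heat shock genes, all 4 had opposite signs. Des (desmin, shared by smooth and striated muscle) had 688 in Rbpj-cKO and 542 in control on replicate 1, and 509 and 983 on replicate 2. The female control thus had the highest level of the 4 channels and the female Rbpj-cKO the lowest. Its ratios were 0.34 and -0.95, a mean of -0.30 ± 0.92 (SD, n = 2). Cryab (alpha-B crystallin, a chaperone of desmin) had 0.41 and -0.45. Hspb1 (a small heat shock protein that acts on actin filaments) had 0.068 and -0.22. Synm (synemin, a partner of desmin) ran the other way, with -0.044 and 0.34. The probe of Des spans 226 bases of the genome (chr1:75363404-75363629), so its ends lie in different exons, and is shown as the probe with the widest difference between the arrays in the set.
Des: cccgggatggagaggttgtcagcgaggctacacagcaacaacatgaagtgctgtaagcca

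The adhesion and cross-linking genes link actin to the matrix. Itga8, an integrin alpha chain of smooth muscle and mesenchyme, was higher on both arrays, with 0.062 and 0.14. Flna (filamin A) had -0.011 and 0.0031, the smallest difference between arrays of the set, at intensities from 85230 to 86260. Vcl (vinculin) had 0.082 and -0.092. Actn1 (alpha-actinin) had 0.39 and -0.32, Itga5 (the fibronectin receptor chain) 0.31 and -0.45, and Itgb1 (the common beta chain) 0.11 and -0.37. By their brightest probes, these last 3 and Vcl thus followed the sign pattern of Acta2 and Des. So did both remaining genes, Sh3bgr (0.13 and -0.23) and Mustn1 (0.12 and -0.38), of which Mustn1 was above background on 1 of 4 spots in female Rbpj-cKO.

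For 14 of the genes more than 1 probe was measured. In 9 of them all probes had the same sign pattern over the arrays. Among these, both Cryab probes had opposite signs (0.41 and -0.45, and 0.33 and -0.35). So had both probes of Smtn and of Tpm2 and the 3 probes of Pdlim7. The second probe of Myl6 had 0.21 and -0.27, farther from 0 than its brightest probe, and 1 probe of Pdlim7 had 0.32 and -0.49. The 2 probes of Sh3bgr, and 2 of the 5 of Tpm1, overlap in sequence and are not independent measurements. The sign pattern of the probes differed for Dmpk, Itgb1, Mylk, Ppp1r12b and Vcl. For Dmpk and Ppp1r12b the differing probes had spots not above background.

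**Figure D4:**
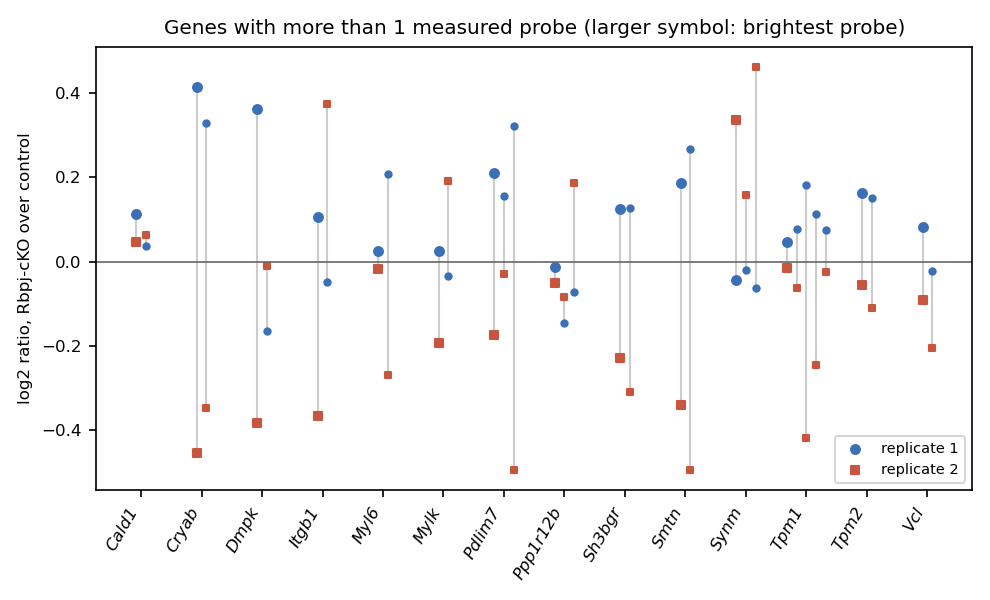
Log2 ratio of Rbpj-cKO over control (y axis) of every measured probe of the 14 genes with more than 1, for replicate 1 (circles) and replicate 2 (squares); a line joins the arrays of 1 probe. The probes of Cryab, Smtn, Tpm1 and Tpm2 keep the circle above the square, while those of Itgb1 do the opposite of each other.

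Tpm1 is spliced into many isoforms, and its 5 probes differed in size but not in sign. They were 0.047 to 0.18 on replicate 1 and -0.42 to -0.016 on replicate 2. The widest pair of values, 0.18 and -0.42, came from a probe at chr9:66871166-66871225. It was followed by 0.11 and -0.25 at chr9:66880274-66880333. Both are printed because they read other parts of the gene than the brightest probe and differed most from it. The 2 probes of Itgb1 are printed because their signs were opposed on each array. The brighter (0.11 and -0.37) spans 5896 bases of the genome (chr8:131250081-131255976), and the other (-0.049 and 0.37) lies at chr8:131246349-131246408.
Tpm1, wider probe: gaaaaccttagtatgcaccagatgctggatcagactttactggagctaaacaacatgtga
Tpm1, next probe: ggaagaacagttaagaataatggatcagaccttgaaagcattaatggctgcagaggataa
Itgb1, brighter probe: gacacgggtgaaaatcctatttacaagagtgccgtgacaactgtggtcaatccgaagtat
Itgb1, other probe: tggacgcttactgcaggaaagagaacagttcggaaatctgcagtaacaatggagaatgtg

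Base composition of the probes moved with the difference between the arrays. Over the 32 genes (1 probe each) the GC content ran from 35% to 55% with a median of 45%, against a median of 41.7% for all genes. Its Pearson correlation with the ratio of replicate 1 minus that of replicate 2 was 0.408 over the 32 genes and 0.235 over all 20438. With the mean of both arrays it was -0.366 and -0.132. These are descriptions across probes that share arrays and dyes, and the part of base composition in the opposite signs was not tested.

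Among regulators of the contractile genes, Myocd stood out. Myocd, which encodes myocardin, had 689 in Rbpj-cKO and 1097 in control on replicate 1, and 361 and 743 on replicate 2, with ratios of -0.67 and -1.04 (adjusted p = 0.607). It was thus lower on both arrays, as were Cnn1, Actg2, Ppp1r12b and Ppp1r14a. Pcp4, Synpo2, Tagln, Cald1 and Itga8 were higher on both, while Acta2 and Des were lower in the female pair and higher in the male. A link between Myocd and these ratios was not tested. A list of regulators had 13 measured genes and a median of -0.032. Both arrays gave the same sign for 6 of them, higher for 2 and lower for 4. The shares over all genes were 16% higher and 14.7% lower on both. For 1 gene, Myocd, the difference was at least 1.5-fold on both, and 0.0636% of all genes were that much lower on both. With median centring Myocd had -0.53 and -1.18, and replicate 1 then fell short of 1.5-fold.

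The start regions of the genes were searched for letters that these factors are known to bind. RefSeq start regions (GRCm38.p6, 250 bases before and 50 after the start) were matched by symbol for 29 of the 34 genes, 33 regions in all. Tagln, Actg2, Myh11, Cryab and Sh3bgr had no such region and were not searched. Letters were counted on both strands. The CArG box in its strict form, CC and GG around a run of A and T, was in 3 of the 33 regions (9.09%), those of Myl6, Myl9 and Vcl, and in 1.63% of all 32851 regions of that length. The box with 1 G or C among its central bases was in 7 (21.2%, against 8.5% of all), Acta2 and Pcp4 among them. TGGGAA, the core letters of the Rbpj site, was in 10 (30.3%, against 25.6%).

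The windows below show the strict boxes and the stretch of Acta2 that holds 2 boxes with 1 G or C, with the letters found in capitals. In Acta2 the second capital run is a box that overlaps TGGGAA, and so ends in the letters of both. The windows are chr19:34255384-34255463 (Acta2, minus strand), chr2:156775284-156775333 (Myl9, plus), chr10:128493030-128493079 (Myl6, minus) and chr14:20929152-20929201 (Vcl, plus).
Acta2: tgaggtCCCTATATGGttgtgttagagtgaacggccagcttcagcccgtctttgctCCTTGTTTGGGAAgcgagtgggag
Myl9: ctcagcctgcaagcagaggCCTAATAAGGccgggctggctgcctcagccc
Myl6: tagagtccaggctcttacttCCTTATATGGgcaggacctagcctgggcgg
Vcl: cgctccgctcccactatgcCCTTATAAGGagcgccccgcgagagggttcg
Of the measured genes with TGGGAA, all but Ppp1r12b (lower on both arrays) were higher on replicate 1 and lower on replicate 2. These were Acta2, Actn1, Csrp1, Hspb1, Pdlim3, Smtn, Tpm1 and Vcl. In the whole set 20 of 32 genes had this pattern, and 34.3% of all genes had it. Genes with a CArG box of either form were mixed. By their brightest probes, Acta2, Itga5, Itgb1, Myl6, Pdlim3 and Vcl had this pattern. Myl9 and Synm had the reverse, and Pcp4 was higher on both arrays. The part of the letters in these ratios was not tested. A match is a description of letters and no site of binding.

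Other genes of contraction, the cytoskeleton and adhesion also mostly had opposite signs. Of 52 listed genes 51 were measured, 6 of them higher and 5 lower on both arrays and 40 opposite. Of all measured genes 16% were higher on both, 14.7% lower on both and 69.2% opposite. With limma 0 of 51 had an adjusted p under 0.05, and 0 an unadjusted p under 0.05, against 0% and 1.84% of all genes. The median mean ratio was -0.014, with 0.071 on replicate 1 and -0.070 on replicate 2. Of the opposite genes 28 were higher on replicate 1 and 12 lower. Tnnt2 (cardiac troponin T, 0.75 and -1.15) and Ldb3 (a Z-disc protein of striated muscle, 0.70 and -1.13) were the 2 genes at least 1.5-fold different on both arrays in opposite directions, as 0.719% of all genes were. Averaged over its probes, Ldb3 had 0.48 and -0.73, and replicate 1 was then under 1.5-fold. In the contractile set that number was 0.

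Striated muscle genes had opposite signs almost throughout. Of 27 measured such genes 26 were higher on replicate 1 and lower on replicate 2, a pattern of 34.3% of all genes. The other 1 was lower on both, and the medians were 0.52 and -0.96. Their summed intensity was 71970 in male Rbpj-cKO and 45740 in male control, and 44100 in female Rbpj-cKO and 93010 in female control. Des had the same order of the 4 channels, and Acta2 the same highest and second channel. Defining genes of that tissue were present, with Myog at 1115 and 956 on replicate 1 and at 1064 and 2064 on replicate 2, while Myf5 was not above the filter. The part of striated muscle RNA in the opposite ratios of Acta2, Des, Cryab and Dmpk was not tested.

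Erythroid genes also mostly had opposite signs. For the counts below, the shares over all genes were 69.2% opposite, 16% higher on both arrays and 14.7% lower on both. Of 14 measured, 12 were higher on replicate 1 and lower on replicate 2, a pattern of 34.3% of all genes. The other 2 were lower on both, and the medians were 0.57 and -0.77. Summed intensities were 1036000 in Rbpj-cKO and 616200 in control on replicate 1, and 466200 and 915900 on replicate 2. Vessel wall genes stood closer to 0. The 9 pericyte genes had medians of 0.088 and -0.0036, with 3 higher and 1 lower on both arrays, and the 7 endothelial genes 0.11 and -0.025, with 2 higher and 1 lower. The 6 macrophage genes had 0.41 and 0.031, with 5 higher on both. All 12 ureteric mesenchyme genes found on the array, which mark the labelled tissue, were measured. They had -0.051 and 0.0083, with 2 higher and 3 lower on both, and the 14 urothelial genes had -0.011 and 0.0016, with 3 higher and 3 lower. The part of these cells in the smooth muscle values was not tested.

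**Figure D5:**
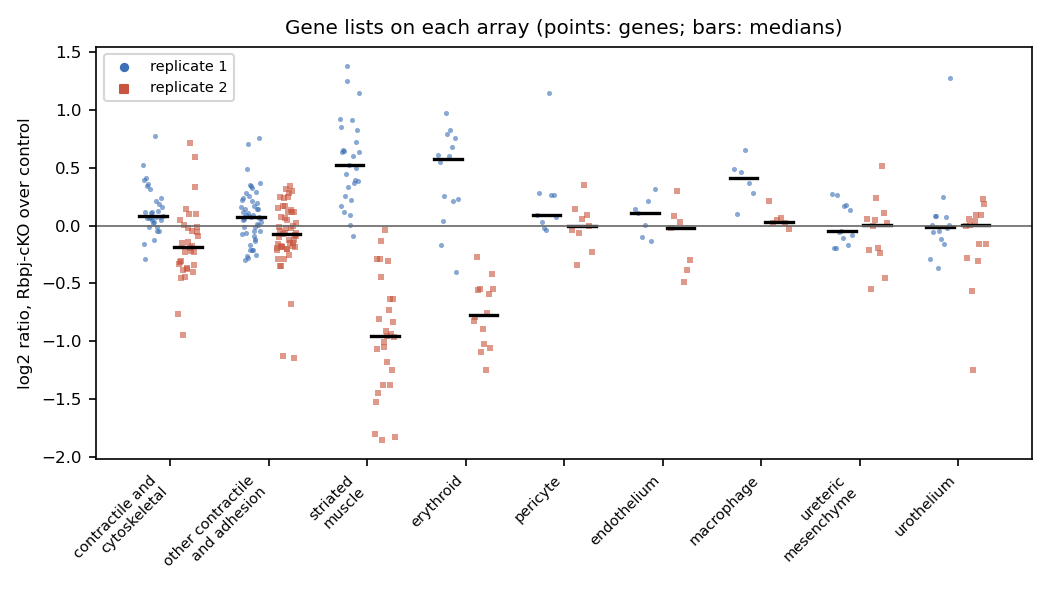
Log2 ratio of Rbpj-cKO over control (y axis) of the genes of 9 lists on replicate 1 (circles) and replicate 2 (squares), with bars at the medians. The contractile and cytoskeletal genes have medians of 0.079 and -0.18, the striated muscle genes of 0.52 and -0.96 and the pericyte genes of 0.088 and -0.0036.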

How the data were processed

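Arrays were 2-colour Agilent arrays, scanned into Feature Extraction 10.7.3.1 according to the submitters' processing notes, on 1 slide in 1 scan, with probe coordinates on mm9 per the file headers. The labels' protocols give 150 ng of total RNA as input. The mean and background median intensity of each spot were deposited by the authors with no normalization. The processed intensity and the log10 ratio of red over green were deposited after the software's own background and dye correction, per the file headers. Flags for spots above background, saturated or outlying are other values of 0 or 1, per the file headers. The series table deposited by the authors holds a score per probe read as a signed fold change of Rbpj-cKO over control (0 values between -1 and 1, medians of 1); its correlation with the ratios used here was 0.943 and 0.948, with a method not given in the sources used here.

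Signals were corrected with normexp (offset 50) and loess in limma 3.58.1 (R 4.3.3), giving control spots weight 0. Spots flagged as outliers (3.57% and 3.9%) were left out and the rest averaged. The sign of replicate 2 was turned, so that a dye effect shared by both arrays cancels in the mean. The brightest probe stood for a gene. Channel levels are the loess-normalized intensities after Aquantile scaling between arrays and include the offset. Levels of different probes are not compared. Mean ratios were tested against 0 with lmFit and eBayes (two-sided, 1 residual degree of freedom, p-values adjusted over all 20438 genes by Benjamini-Hochberg). Since nothing says that the RNA came from separate litters, p-values measure the spread between these arrays. For each gene that spread was moderated towards the spread of all genes, with 5.73 prior degrees of freedom against the 1 residual. Alternatives changed the background correction, normalization, filter, choice of probe, treatment of outlier spots, variance moderation and source of values, or left out an array. The procedure was tested on simulated data with independent deviations on each array and no dye effect. That test therefore does not cover the negative correlation between the arrays or a part of the dyes. The members, the lists and the settings tried were chosen with earlier results of these data known. Named genes are all 34 members, Rbpj, Myocd, and other contractile genes at least 1.5-fold different on both arrays, with at most the highest and lowest gene of a marker list; Myog, Myf5 and the Y-linked genes were added after their values were seen. RefSeq accessions named 56 of the 59 probes, each by the symbol in the files, and 3 had no match. Whether a probe lies in a coding or an untranslated part of a transcript was not analysed here; 6 probes span over 100 bases of the genome and so cross a splice junction.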

Additional observations from a re-analysis of the deposited data

Results flagged for a closer look

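Tnnt2 and Ldb3 differed at least 1.5-fold in opposite directions in the male and the female pair. The log2 ratio was higher in the male pair by 1.90 for Tnnt2 and by 1.83 for Ldb3. With 1 array per sex and the dyes exchanged between them, these differences were not tested.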

How the results depend on the processing

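Across 10 ways of processing, Pcp4 and Synpo2 were higher and Cnn1 and Actg2 lower on both arrays in each, and 15 of the 20 genes that were higher on replicate 1 and lower on replicate 2 kept that pattern, Acta2 and Des among them. Over these settings the mean ratio was 0.73 to 0.84 for Pcp4 (limma adjusted p from 0.475 to 1) and -0.31 to -0.29 for Cnn1. The single ratios of Cnn1 ran from -0.32 to -0.14 on replicate 1 and from -0.49 to -0.30 on replicate 2. Under limma, genes with an adjusted p under 0.05 numbered 1 with the processed signals (Gm19410) and 5 with an intensity trend and robust moderation (Ren2, Mdfi, Gm19410, 9430037G07Rik and D030062O11Rik, named after their values were seen), none of them in the contractile set. Median centring without loess left 0 members 1.5-fold different the same way on both arrays, and 2 members and 3 other contractile genes higher on both arrays and gave the urothelial median as -0.025; it was -0.071 over a gene's probes and -0.021 in the authors' deposited values. Without either replicate the urothelial median was -0.011 or 0.0016, the pericyte median -0.0036 or 0.088 and that of the members -0.18 or 0.079. Some means changed sign: averaging probes gave 0.016 for Itgb1 (from -0.13), -0.027 for Tpm1, -0.014 for Myl6 and -0.0018 for Pdlim7, the processed signals -0.017 for Myl6 and 0.00052 for Dmpk, and the authors' deposited values 0.015 for Vcl and 0.014 for Dmpk. The cause was not tested. Counts of calls cannot be had with 1 array left, as no residual degree of freedom remains. No paired analysis was possible because each array already sets Rbpj-cKO against control and there is 1 group of ratios. Dim probes are compressed towards 0 by the offset.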
